A study of Mus musculus with 6 samples.

Results

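The interferon-induced transmembrane genes Ifitm1, Ifitm2, Ifitm3 and Ifitm6 were followed across the cell classes of mouse pancreatic tumors treated with an interleukin-10 agent. The 4 genes were chosen by name, as the Ifitm genes listed in the count matrices, and the family was selected on its measured pattern, a strong rise of Ifitm1 in myeloid cells. They are 4 of 34187 gene features. C57BL/6 mice bore subcutaneous 6694c2vTRP1 tumors, a line derived from the KPC model of pancreatic cancer, and received intraperitoneal PBS, mono-IL10 at 26 µg per mouse or IL10/2-Trikine at 30.6 µg per mouse from day 8, on every other day and with a pair of doses, before tumors were taken on day 14. The study's methods describe young mice of both sexes for this tumor model, and the labels give neither the sex nor the age of each group. mono-IL10 is a monomeric form of human interleukin-10 that engages the interleukin-10 receptor, which signals mainly through STAT3, and the Trikine carries a further arm that recruits the interleukin-2 receptor beta chain, which signals through STAT5. CD45+ cells were enriched on beads, tagged with 1 hashtag antibody per mouse and pooled, 5 mice per treatment, into 1 droplet library per treatment. Treatment and library therefore cannot be told apart, the mouse is the replicate, and the 3 comparisons share mice.

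The libraries held 44412 (PBS), 30528 (mono-IL10) and 55504 (IL10/2-Trikine) barcodes, of which 34518, 24060 and 46104 passed the filters, with a median of 9474, 11643.5 and 6399 gene UMIs. Pairs of libraries shared 408 to 700 barcodes, 1.34% to 1.58% of the smaller library. Cells were clustered without the Ifitm genes and named from marker lists, and T and NK cells were taken from the annotation the authors deposited. Lymphocytes outside that annotation, 209 (PBS), 294 (mono-IL10) and 168 (IL10/2-Trikine) cells, did not enter. Macrophages or monocytes entered with 7481, 5559 and 4657 cells in the same order, dendritic cells with 672, 399 and 297, tumor epithelial cells with 5155, 4458 and 9792, T cells with 249, 446 and 181 and NK cells with 99, 180 and 219. Neutrophils entered with 211 and 417 cells, since no IL10/2-Trikine mouse had 10 of them. The class names stand for cells that resemble these types, and tumor epithelial cells, whose 6 markers were all above 0, remained after the CD45+ enrichment. Median depth in macrophages was 4853, 6078.5 and 2730.5 UMIs per cell, so that mono-IL10 was sampled deepest and IL10/2-Trikine least. Levels below are counts summed over the cells of 1 class in 1 mouse and divided by all gene counts of that sum, as CPM, counts scaled to a total of 1000000, and fitted differences are edgeR log2 differences.

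IFITM proteins are small membrane proteins of the plasma membrane and endosomes that hinder the fusion of enveloped viruses with the cell. Ifitm3 is the member best known for restricting influenza virus, Ifitm1 sits mainly at the cell surface, and Ifitm2 is a close sequence relative of Ifitm3. Ifitm6 has been described mainly in the myeloid lineage. The family is induced by interferons, and Ifitm genes are also expressed without interferon in many tissues. The 4 genes neighbour each other on chromosome 7 in the order Ifitm2, Ifitm1, Ifitm3 and Ifitm6. How reads shared by the near-identical Ifitm2 and Ifitm3 were divided could not be examined, so values of that pair are uncertain to this extent.

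The sequences just before the gene starts are shown for reference. The members lie side by side and differed in direction under treatment, and no link of sequence or motif to direction was tested. They are the 150 bases before the start in RefSeq (build GRCm38.p6, while the counts were made on GRCm39), on the strand of each gene, with motif matches in capitals.
Ifitm1, chr7:140967926-140968075, plus strand: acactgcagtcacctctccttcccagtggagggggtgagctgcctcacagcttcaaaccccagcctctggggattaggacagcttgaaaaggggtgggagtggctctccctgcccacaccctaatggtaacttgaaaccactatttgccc
Ifitm2, chr7:140955962-140956111, minus strand: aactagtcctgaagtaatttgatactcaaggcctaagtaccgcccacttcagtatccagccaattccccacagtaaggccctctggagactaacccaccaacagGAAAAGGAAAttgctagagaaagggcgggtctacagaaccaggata
Ifitm3, chr7:141010745-141010894, minus strand: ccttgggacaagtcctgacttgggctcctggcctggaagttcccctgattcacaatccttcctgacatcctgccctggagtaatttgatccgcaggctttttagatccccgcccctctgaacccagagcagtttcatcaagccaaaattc
Ifitm6, chr7:141016893-141017042, minus strand: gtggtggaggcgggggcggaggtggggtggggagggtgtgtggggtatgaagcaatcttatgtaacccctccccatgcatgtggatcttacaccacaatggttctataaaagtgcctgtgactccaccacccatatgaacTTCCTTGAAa
The motifs searched on both strands were the STAT site TTCNNNGAA and the interferon-response core, which is GAAA, any 2 bases and GAAA again, in the window from 250 bases before to 50 bases after each start. Of 32851 such windows, 8.30% held the first and 3.44% the second. Ifitm2 held the interferon-response core 46 to 37 bases before its start, and Ifitm6 the STAT site 10 to 2 bases before its start. Ifitm3 held its matches after the start, GAAAAGGAAA at bases 3 to 12, GAAACCGAAA at bases 20 to 29 and TTCTGAGAA at bases 14 to 22, the last of which overlaps the second. Neither motif was in the Ifitm1 window.

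Ifitm1 in macrophages or monocytes was higher in every treated mouse than in every PBS mouse. The level was 91.5, 209.9, 111.6, 104.2 and 110.5 CPM in PBS mice 1 to 5. It was 979, 1013, 971, 1055 and 729 CPM with mono-IL10. With IL10/2-Trikine it was 422, 584, 358, 858 and 642 CPM. Neither treated group overlapped PBS, while 4 of 5 IL10/2-Trikine mice lay below every mono-IL10 mouse. How many of all genes separate the mice in this way is not given for any class. The group means were 126 ± 47.8, 950 ± 128 and 573 ± 197 CPM (SD, n = 5 mice each). The fitted log2 difference was 2.99 (SE 0.24) for mono-IL10, a 7.97-fold higher level, and 2.17 (SE 0.23), 4.49-fold, for IL10/2-Trikine. Among 11985 genes fitted, 5 had a more positive difference with mono-IL10 and 13 with IL10/2-Trikine. Because this contrast chose the family, its differences are given as a description without a test. For background, 26% of genes passed an adjusted p of 0.05 for mono-IL10 against PBS, 16.7% for IL10/2-Trikine against PBS and 11.4% between the treatments.

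More macrophages also held a detectable Ifitm1 molecule. With each cell thinned to 2000 UMIs, the share of macrophages with an Ifitm1 UMI averaged 12.2% in PBS, 37.1% with mono-IL10 and 30.9% with IL10/2-Trikine, against 21.0%, 49.9% and 34.2% before thinning. In tumor epithelial cells, where no Ifitm1 difference passed the test, the thinned shares were 7.75%, 6.69% and 8.61%. Cells under 2000 UMIs were left out of the thinned shares, which kept 7181 of 7481, 5433 of 5559 and 3922 of 4657 macrophages. Neutrophil markers, whose defining genes were all above 0 in macrophages, summed to 288, 192 and 417 CPM there against 38720 CPM in PBS neutrophils, and their part in the result was not tested.

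Ifitm2 was also higher in treated macrophages, by less than Ifitm1. Its level was 568, 787, 622, 567 and 596 CPM in PBS mice, 971, 1091, 1114, 1088 and 828 CPM with mono-IL10, and 866, 904, 784, 1153 and 942 CPM with IL10/2-Trikine. All mono-IL10 mice and 4 of 5 IL10/2-Trikine mice lay above every PBS mouse. The log2 difference was 0.79 (SE 0.12) with mono-IL10 and 0.56 (SE 0.12) with IL10/2-Trikine, and 240 and 650 genes had a more positive one. Ifitm3 did not share this direction. It stood at 612, 576, 625, 560 and 504 CPM in PBS mice, 516, 573, 479, 415 and 345 CPM with mono-IL10, and 385, 374, 360, 646 and 476 CPM with IL10/2-Trikine. The 3 groups overlapped, and the log2 differences were -0.21 (SE 0.14) and -0.37 (SE 0.15). Ifitm6 was low in macrophages, at a mean of 7.59, 6.22 and 5.59 CPM from 38 to 81, 27 to 72 and 8 to 30 UMIs per mouse, with overlapping mice and log2 differences of -0.19 (SE 0.25) and -0.56 (SE 0.31).

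**Figure D1:**
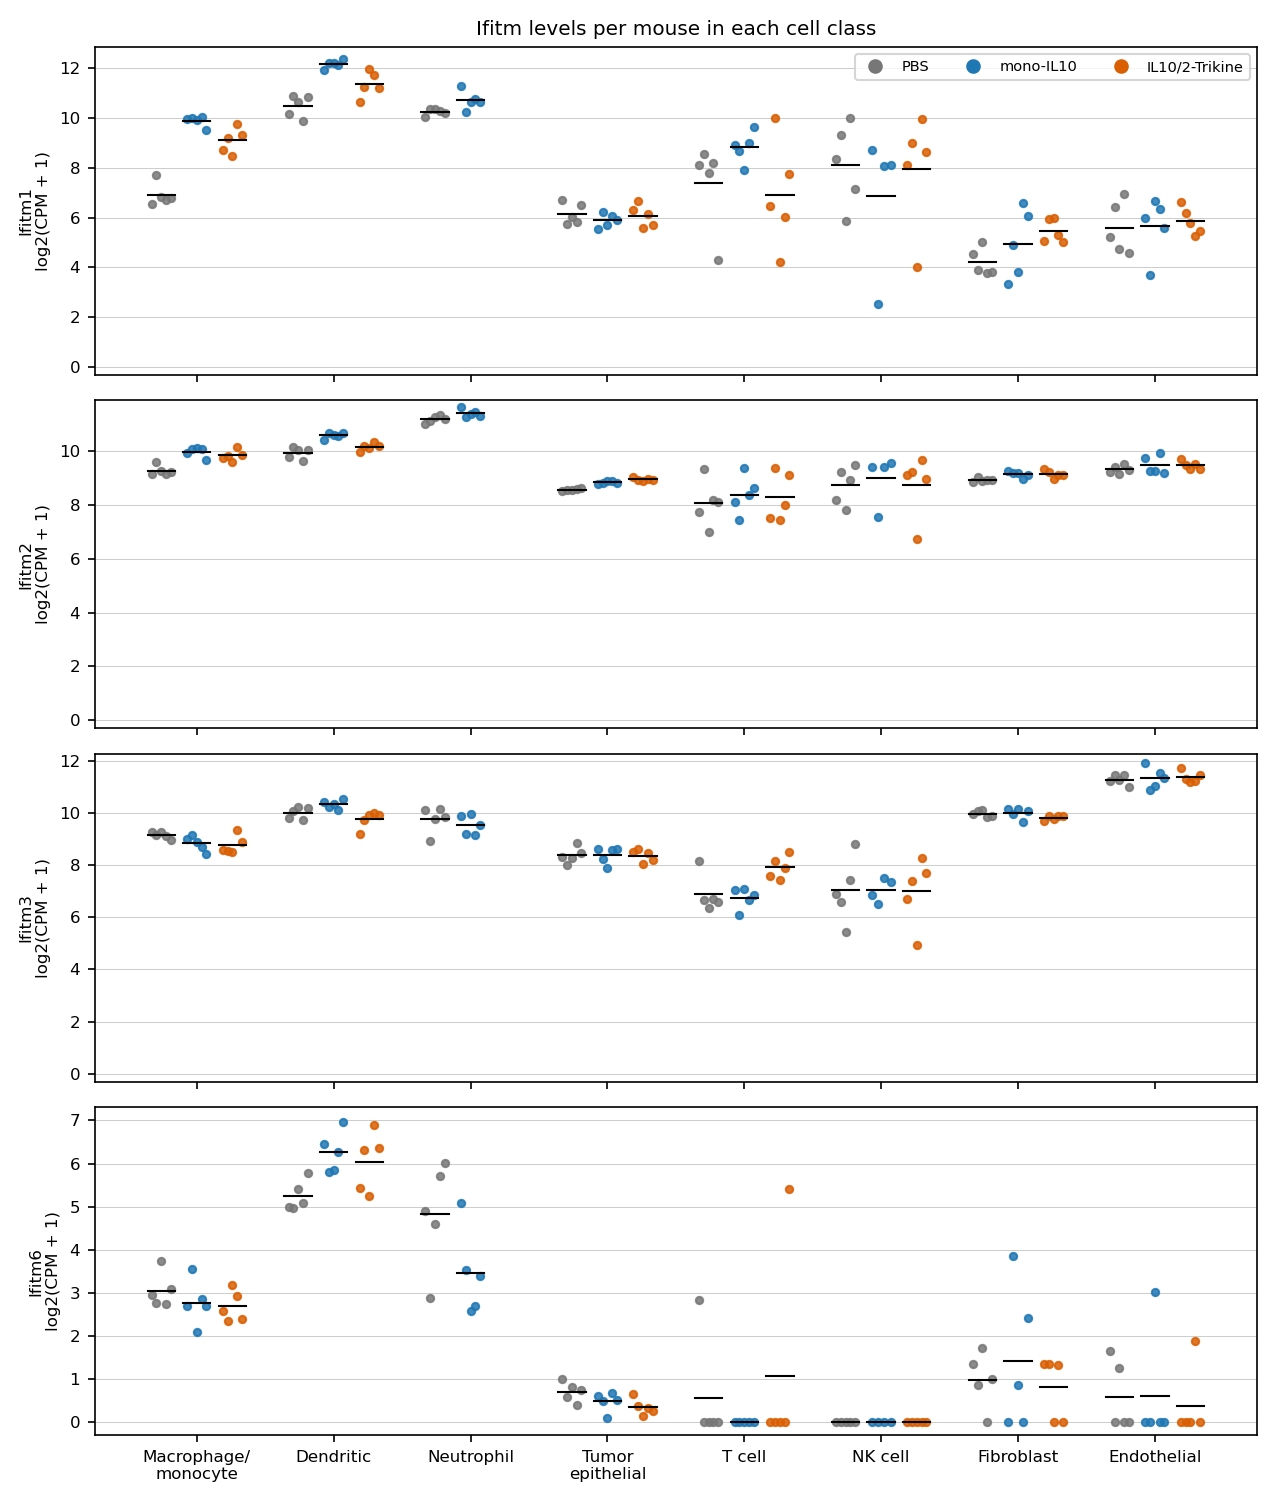
Level of each Ifitm gene as log2(CPM + 1) for every mouse (points) in 8 cell classes, coloured by treatment, with black bars at the means over mice. In macrophages or monocytes the Ifitm1 points of both treatments stand clear of the PBS points, which have a mean of 126 CPM, whereas the Ifitm3 points of the 3 treatments overlap.

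**Figure D2:**
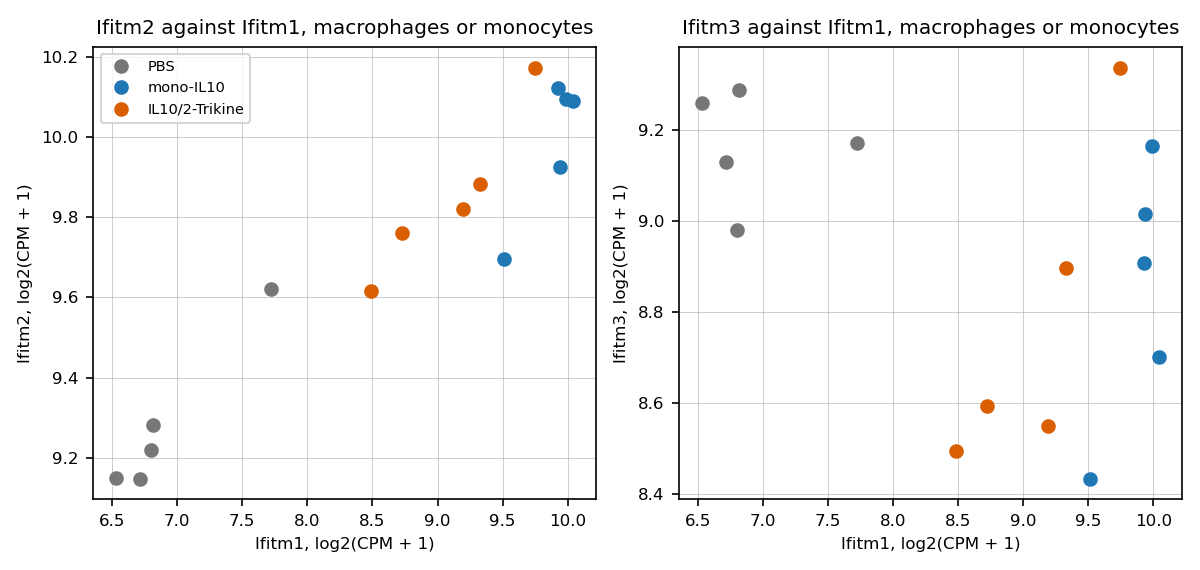
Ifitm2 (left) and Ifitm3 (right) against Ifitm1 in macrophages or monocytes, each point 1 of 15 mice, as log2(CPM + 1) and coloured by treatment. Ifitm2 climbs with Ifitm1 from the PBS to the mono-IL10 mice (r 0.960), and Ifitm3 does not (r -0.371).

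Over the 15 macrophage sums, Pearson's r of log2(CPM + 1) with Ifitm1 was 0.960 for Ifitm2, -0.371 for Ifitm3 and -0.354 for Ifitm6. The points form treatment groups that share a library each, so these values describe the same group differences again. Over all 115 sums of a mouse and a class, r with Ifitm1 was 0.644 for Ifitm2, -0.0108 for Ifitm3 and 0.672 for Ifitm6. The genes most like Ifitm1 in macrophages, among 5852 with a mean of at least 20 CPM, were Fabp5, a fatty acid binding protein (r 0.955), ENSMUSG00000120851 (0.953), Tmem37 (0.948), Igfbp6, a binding protein for insulin-like growth factors (0.948), and Lpar1, a lysophosphatidic acid receptor (0.945). Over the 115 sums, among 6764 genes, they were Bcl2a1d, an anti-apoptotic gene (0.798), Rel, a subunit of NF-kB (0.798), Dapp1 (0.787), the kinase gene Wnk1 (0.782) and the adaptor gene Grb2 (0.779).

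The higher level of Ifitm1 was found in every cluster that was named as macrophages or monocytes. Of the unnamed clusters only 1 was read, and it is given below. Unnamed cells with a mouse numbered 8592 (PBS), 5578 (mono-IL10) and 9655 (IL10/2-Trikine). The named clusters may therefore not hold all macrophages, and the naming thresholds were changed after clusters were inspected. In all 11 clusters the mean was higher with both treatments, by a ratio to PBS of 3.94 to 12.4 (median 8.30) with mono-IL10 and 3.19 to 9.12 (median 6.14) with IL10/2-Trikine. These means rest on 5 mice, other than 4 with mono-IL10 in the cluster of the 3.94 ratio and 3 and 4 with IL10/2-Trikine in clusters with ratios of 6.14 and 5.00. The mice of mono-IL10 and PBS did not overlap in 11 of the 11 clusters, and those of IL10/2-Trikine and PBS in 7. How often the mice of these groups separate over all genes is not given for either count. The level in PBS differed widely between clusters. It was 309 CPM in a cluster led by Ccl24, Chil3 and Ccr2, where it reached 2535 CPM with mono-IL10 and 1624 CPM with IL10/2-Trikine. A cluster led by Cd163, Ccl7 and Ccl8 went from 21.5 to 144 and 137 CPM. A cluster led by the MHC class II genes H2-Eb1 and H2-Aa went from 131 to 1615 and 1088 CPM. The lowest ratios, 3.94 and 3.19, belonged to a cluster led by the interferon-stimulated genes Rsad2, Ifit2 and Cmpk2, with 79.7, 314 and 254 CPM. The clusters making up the class differed between treatments. A Cd163 cluster led by Nrg1 was 2.13%, 25.9% and 8.07% of macrophages, and a cluster led by Gpnmb, Pf4 and Arg1 was 9.74%, 7.77% and 27.5%, and within these the Ifitm1 mean went from 31.3 to 390 and 259 CPM and from 42.0 to 497 and 383 CPM.

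Ifitm2 and Ifitm3 were distributed differently over the same clusters. Ifitm2 ratios to PBS were 1.07 to 1.90 with mono-IL10 and 1.24 to 1.61 with IL10/2-Trikine, above 1 in all 11 clusters. Ifitm3 ratios were 0.665 to 1.04 and 0.562 to 0.989, above 1 in 1 cluster with mono-IL10 and in 0 with IL10/2-Trikine. The highest Ifitm3 means were in the Rsad2 and Ifit2 cluster, at 2445, 2117 and 1860 CPM, whereas the Ifitm1 mean there was at most 314 CPM. Ifitm6 was highest in the Ccl24, Chil3 and Ccr2 cluster, at 45.0, 75.2 and 42.4 CPM. A cluster that matched no marker list, led by Cbr2, Fcna and the perivascular macrophage gene Lyve1, had Ifitm1 at 68.2, 74.1 and 115 CPM, ratios of 1.09 and 1.68, and overlapping mice.

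**Figure D3:**
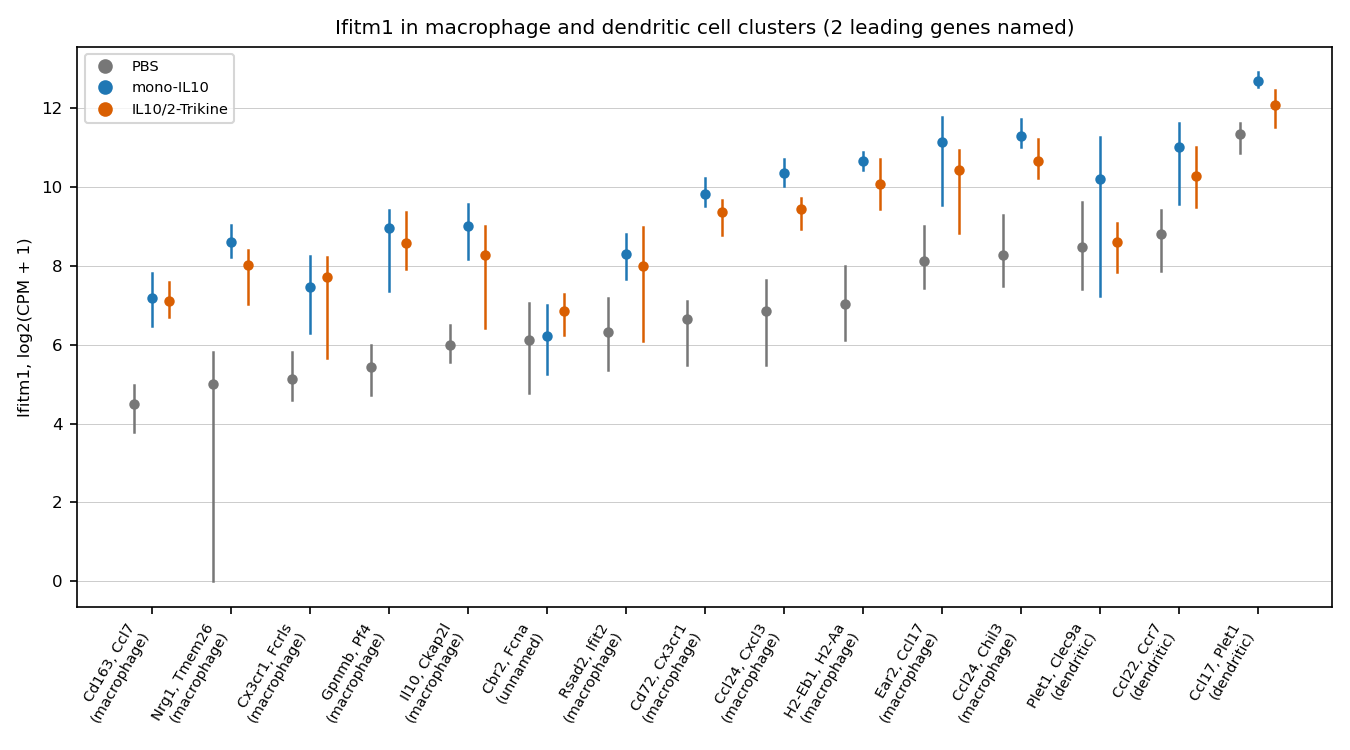
Ifitm1 as log2(CPM + 1) in each macrophage, dendritic cell and 1 unnamed cluster, ordered by the PBS mean and labelled by 2 leading genes, with points at the mean and lines from the lowest to the highest mouse. The mono-IL10 points lie above the PBS points in all 11 macrophage clusters, from 21.5 CPM in PBS at the low end.

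In dendritic cells the mean PBS level of Ifitm1 was above that of every other class, and it was higher still with treatment. PBS mice had 1124, 1896, 1582, 929 and 1819 CPM. With mono-IL10 it was 3870, 4679, 4677, 4465 and 5226 CPM, apart from PBS. With IL10/2-Trikine it was 1608, 2402, 4008, 3349 and 2320 CPM, which overlapped PBS. The log2 differences were 1.70 (SE 0.20, 3.26-fold) and 0.83 (SE 0.20), and 5 and 150 of 7511 genes had more positive ones. Restricting the cells to those with at least 2000 detected genes left 0.04 for IL10/2-Trikine against PBS and -1.72 between the treatments. For background, 2.7%, 1.29% and 1.21% of genes passed the test for mono-IL10 against PBS, IL10/2-Trikine against PBS and IL10/2-Trikine against mono-IL10. Macrophage markers, all 9 above 0, summed to 6936 (4941 to 10298), 6578 (4385 to 11046) and 7162 (2859 to 12650) CPM in these cells, and their part in the result was not tested.

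In dendritic cells Ifitm2 and Ifitm6, like Ifitm1, were higher in every mono-IL10 mouse than in every PBS mouse, while Ifitm3 overlapped. The share of all genes that separate in this way is not given, so this is not read as particular to these genes. Ifitm2 was 799.7 to 1138 CPM in PBS, 1386 to 1642 CPM with mono-IL10 and 998 to 1321 CPM with IL10/2-Trikine, so that mono-IL10 stood apart from both other groups (log2 difference from PBS 0.72, SE 0.10). Ifitm3 had means of 1045 ± 167, 1301 ± 145 and 882 ± 179 CPM (SD, n = 5) and separated mono-IL10 from IL10/2-Trikine, while 3 of 5 mono-IL10 mice lay above all PBS mice. Its log2 differences were 0.38 (SE 0.13) for mono-IL10 and -0.32 (SE 0.14) for IL10/2-Trikine against PBS. Ifitm6 was 30.4 to 54.3 CPM in PBS, 54.8 to 123 CPM with mono-IL10 and 36.8 to 117 CPM with IL10/2-Trikine, a log2 difference of 1.15 (SE 0.23) and 0.84 (SE 0.29), and mono-IL10 mice stood apart from PBS mice. The IL10/2-Trikine difference of Ifitm6 was 0.24 in cells with at least 2000 genes and turned to -0.13 under the naming rule set first.

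Dendritic cell clusters differed in Ifitm1. The cluster led by Ccl17, Plet1 and Cd209a, a marker of conventional type 2 dendritic cells, had 2600 CPM in PBS, 6674 CPM with mono-IL10 and 4352 CPM with IL10/2-Trikine. The mature cluster led by Ccl22, Ccr7 and Fscn1 had 445, 2084 and 1248 CPM. The Clec9a and Xcr1 cluster, conventional type 1 dendritic cells, had 355, 1176 and 387 CPM, with means over 5, 3 and 2 mice, and both treatments overlapped PBS. Under the naming rule set first, the Ccl17 cluster stayed without a name. The shares of the 3 clusters were 51.6%, 25.6% and 22.8% of PBS dendritic cells, 59.9%, 25.3% and 14.8% with mono-IL10 and 48.8%, 40.7% and 10.4% with IL10/2-Trikine.

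Neutrophils already carried high levels of Ifitm1 and Ifitm2. Ifitm1 was 1053, 1306, 1309, 1237 and 1176 CPM in PBS mice and 2470, 1197, 1598, 1719 and 1594 CPM with mono-IL10. Of the mono-IL10 mice, 4 of 5 lay above every PBS mouse, and the log2 difference was 0.55 (SE 0.15), exceeded by 123 of 2370 genes. Both neutrophil clusters had more Ifitm1 with mono-IL10, a Siglecf cluster going from 606 to 1252 CPM and a Cstdc4 and Acod1 cluster from 1380 to 2130 CPM. With cells thinned to 2000 UMIs, 75.4% and 72.6% of neutrophils held an Ifitm1 UMI, which gives the opposite sign, and its cause was not tested. Ifitm2 was 2055 to 2635 CPM in PBS and 2498 to 3217 CPM with mono-IL10 (log2 difference 0.28, SE 0.10). Ifitm3 was 480 to 1128 and 570 to 1003 CPM (-0.18, SE 0.21), and Ifitm6 was counted 1 to 10 and 1 to 12 times per mouse. Macrophage markers, all 9 above 0, summed to 4515 (2344 to 5855) CPM in PBS neutrophils and 1267 (1186 to 1325) CPM with mono-IL10, and their part in these values was not tested. The background for this comparison was 5.7% of genes. The 34 IL10/2-Trikine neutrophils, summed over mice and without a replicate check, gave Ifitm1 1587 CPM (exact Poisson interval 1338 to 1869, counting error only).

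Tumor epithelial cells and lymphocytes lie outside the myeloid rise that chose the family, so the members were tested there. The members were chosen with earlier results of these data known, so the p-values for these classes are not an independent check. In tumor epithelial cells Ifitm2 rose modestly with both treatments. It was 371, 382, 378, 386 and 395 CPM in PBS mice, 439, 455, 476, 478 and 458 CPM with mono-IL10 and 534, 495, 474, 508 and 495 CPM with IL10/2-Trikine. Every treated mouse lay above every PBS mouse, and the share of all genes that separate in this way is not given. The log2 difference was 0.37 (SE 0.04, 1.30-fold, edgeR adjusted p = 0.000171) for mono-IL10 and 0.43 (SE 0.04, 1.34-fold, adjusted p = 4.87e-06) for IL10/2-Trikine. Between the treatments it was 0.05 (SE 0.04, adjusted p = 0.390). The ratio to PBS was above 1 in 9 of 9 tumor clusters with each treatment, from 1.09 to 1.36 and from 1.16 to 1.39. Macrophage markers, all 9 above 0, summed to 142 (110 to 207), 58.0 (39.3 to 92.5) and 174 (87.3 to 418) CPM. The 8 macrophage genes used to estimate carried RNA stood at 0.494%, 0.215% and 0.636% of their macrophage level, as means over mice. At that share macrophage RNA would carry 3.15, 2.17 and 5.78 CPM of Ifitm2, and RNA from other cell types was not estimated. The 6 tumor epithelial markers summed to 5288 (4387 to 5885), 5170 (4837 to 5516) and 4049 (3857 to 4177) CPM, median depth was 20106, 29103 and 8556.5 UMIs per cell, and 5155 of 9867, 4458 of 7437 and 9792 of 21282 such cells were assigned to a mouse. The part of these shifts in the result was not tested.

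The other members did not follow Ifitm2 in these cells. Ifitm1 was 53.1 to 102.5, 45.8 to 74.2 and 46.8 to 101.5 CPM, with log2 differences from PBS of -0.19 (95% interval -0.64 to 0.25, adjusted p = 0.663) and -0.03 (interval -0.49 to 0.42, adjusted p = 0.943). Ifitm3 was 253 to 465, 234 to 396 and 263 to 395 CPM, with differences of 0.12 (adjusted p = 0.725) and 0.01 (adjusted p = 0.975). Ifitm6 was counted 31, 16, 32, 6 and 17 times in PBS mice, 15, 10, 2, 22 and 26 times with mono-IL10 and 5, 9, 2, 7 and 4 times with IL10/2-Trikine. These counts give 0.646, 0.408 and 0.285 CPM. Its log2 difference with IL10/2-Trikine was -1.34 (SE 0.43, adjusted p = 0.0357), which lost significance in 7 of 15 fits that left out 1 mouse (IL10/2-Trikine mice 2 to 5 and PBS mice 1, 3 and 5, adjusted p up to 0.0899). It also missed under the naming rule set first (-1.17, adjusted p = 0.0534), and Ifitm6 did not pass the filter on low counts in thinned sums and with the simple hashtag call. In all, 3 of 12 member differences passed the test in tumor epithelial cells, where 4.62% (mono-IL10 against PBS), 21.1% (IL10/2-Trikine against PBS) and 31.8% (between the treatments) of genes did.

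**Figure D4:**
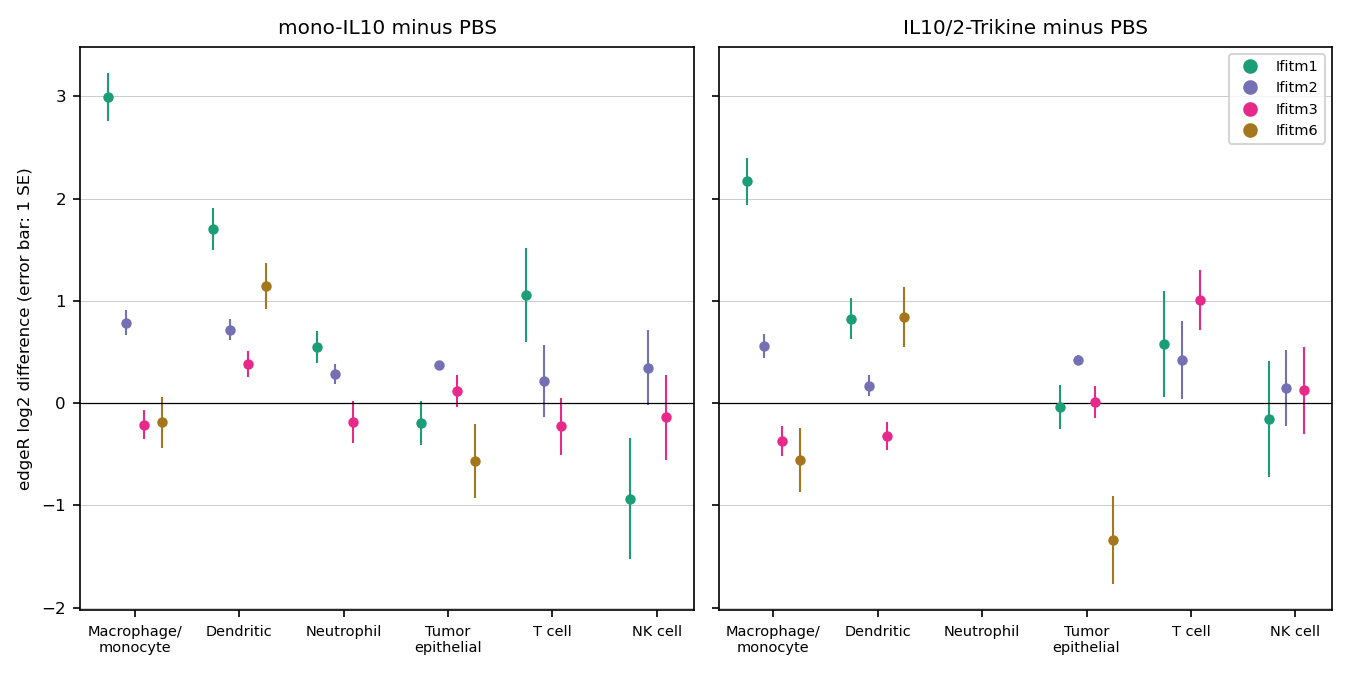
edgeR log2 difference from PBS for each Ifitm gene in 6 cell classes, mono-IL10 on the left and IL10/2-Trikine on the right, with bars of 1 SE. Ifitm1 stands at 2.99 and 2.17 in macrophages or monocytes and at -0.19 and -0.03 in tumor epithelial cells.

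In T cells Ifitm3 was higher with IL10/2-Trikine. It was 284, 99.3, 80.7, 102 and 94.6 CPM in PBS mice, 132, 66.4, 133, 101 and 114 CPM with mono-IL10 and 189, 287, 174, 235 and 364 CPM with IL10/2-Trikine. All IL10/2-Trikine mice lay above all mono-IL10 mice, while the highest PBS mouse overlapped. The share of all T cell genes that separate in this way is not given. These levels rest on 10 to 87 UMIs per mouse. The log2 difference was 1.23 (SE 0.27, 95% interval 0.67 to 1.79, adjusted p = 0.00320) from mono-IL10 and 1.01 (SE 0.29, interval 0.40 to 1.61, adjusted p = 0.0318) from PBS. DESeq2 gave 0.93 (adjusted p = 0.0699) for the difference from PBS. With T cells that held markers of other cells left out, the first was 0.76 (adjusted p = 0.0937) and the second 1.13 (adjusted p = 0.0484). The difference from PBS was lost without IL10/2-Trikine mice 2 or 5 or PBS mice 2, 3, 4 or 5 (adjusted p up to 0.111), and the difference from mono-IL10 was kept in all 15 such fits (adjusted p 0.000280 to 0.0186). Ifitm3 was not among the T cell genes tested in thinned sums or in cells with at least 2000 genes.

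Several values moved with the T cell result. In 1 IL10/2-Trikine regulatory T cell, 31 of the 58 Ifitm3 UMIs of that annotated cluster and treatment were found (53.4%). A single mouse held 35 of the 58 (60.3%), and only IL10/2-Trikine mice 2 and 5 had that many Ifitm3 UMIs in T cells (59 and 44). Whether IL10/2-Trikine mice stay apart from mono-IL10 mice without this cell was not tested. The thinned share of T cells with an Ifitm3 UMI was 12.2%, 11.8% and 21.3%, against 50.4%, 41.4% and 41.7% of macrophages. Summed over the cells of a treatment, Ifitm3 was 101, 82.9 and 151 CPM in cycling T cells and 198, 192 and 753 CPM in activated CD4 T cells. In gamma-delta T and NKT cells it was 51.5, 176 and 33.1 CPM, lowest with IL10/2-Trikine, where it rests on 4 UMIs. Macrophage markers, all 9 above 0, summed to 528 (416 to 701), 382 (246 to 472) and 534 (278 to 1003) CPM in T cells. Estimated from the same 8 macrophage genes as above, macrophage RNA would carry 11.4, 6.90 and 8.95 CPM of Ifitm3. Cycling T cells made up 16.1%, 20.7% and 58.2% of T cells, T cell markers summed to 2866, 3690 and 1798 CPM, and 20.2%, 17.4% and 13.7% of cells held at least 5 UMIs of other cells' markers. Among the annotated cycling T cells, 162 held more NK UMIs than T cell UMIs. With these counted as NK cells, 2 of 9 member differences passed in T cells and 0 of 9 in NK cells. The part of the cluster shares in the result was not tested.

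Ifitm1 in T cells varied strongly between mice. PBS mice had 277.5, 372.3, 219.1, 288.6 and 18.9 CPM, mono-IL10 mice 480.8, 401.1, 238.6, 506.0 and 803.6 CPM and IL10/2-Trikine mice 86.8, 1013, 17.4, 64.1 and 215 CPM. The groups overlapped, and the difference from PBS was 1.05 (95% interval 0.11 to 2.00, adjusted p = 0.269) with mono-IL10 and 0.58 (adjusted p = 0.558) with IL10/2-Trikine, the latter -1.10 (adjusted p = 0.222) without IL10/2-Trikine mouse 2. Between the treatments it was -0.48 (adjusted p = 0.567), and -2.14 (adjusted p = 0.00363) without that mouse. Ifitm2 differed by 0.22, 0.42 and 0.20 in the 3 comparisons (adjusted p = 0.846, 0.561 and 0.776). Ifitm6 was counted once in 1 PBS mouse and 5 times in IL10/2-Trikine mouse 5, where all 5 UMIs came from 1 regulatory T cell. Among IL10/2-Trikine regulatory T cells, 1 cell also held 24 of 25 Ifitm1 UMIs, 1 held 31 of 59 Ifitm2 UMIs and 1 held 31 of 58 Ifitm3 UMIs. Whether these are the same cell was not tested. In all, 2 of 9 member differences passed in T cells, where 1.72% (mono-IL10 against PBS), 8.97% (IL10/2-Trikine against PBS) and 12.3% (between the treatments) of genes did.

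Among the annotated lymphocyte clusters, summed over the cells of a treatment and therefore with counting error only, Ifitm1 in activated CD4 T cells was 359 CPM (exact Poisson interval 280 to 455) in PBS, 1347 CPM (1242 to 1460) with mono-IL10 and 2203 CPM (1873 to 2574) with IL10/2-Trikine. The last value comes from 28 cells, and 1 mouse held 90 of its 158 UMIs (57.0%). In PBS, naive CD4 T cells had 575 CPM (411 to 783) and naive CD8 T cells 597 CPM (454 to 772), and both intervals overlap that of activated CD4 T cells. The naive CD4 value rests on 2 cells with a UMI, 1 of which held 24 of 40 UMIs (60%). With mono-IL10 naive CD4 T cells had 735 CPM, where 1 cell held 47 of 81 UMIs (58.0%), and naive CD8 T cells 337 CPM, where 1 mouse held 114 of 189 UMIs (60.3%). Each naive cluster had at most 2 cells with IL10/2-Trikine. Cycling T cells had 320, 345 and 358 CPM over the 3 treatments, intervals that overlap. Regulatory T cells had 23.3, 68.5 and 414 CPM, and 24 of the 25 UMIs behind the last value (96%) came from 1 cell. Ifitm3 in a small set of interferon-signature CD8 T cells was 1779 CPM (1232 to 2486) in PBS, from 7 cells, 1 of which held 26 of the 34 UMIs (76.5%), and 0 UMIs were counted in the 7 such cells with mono-IL10.

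In NK cells 0 of 9 member differences passed the edgeR test, 0 had an unadjusted p under 0.05 and 0 passed with DESeq2. Ifitm1 was 324, 634, 56.4, 1010 and 141 CPM in PBS mice, 423, 4.78, 269 and 276 CPM in the 4 mono-IL10 mice and 276, 508, 15, 979 and 394 CPM with IL10/2-Trikine. The interval of the mono-IL10 difference, -2.15 to 0.28 on the log2 scale, was wide. The test passed 0.297% (mono-IL10 against PBS), 4.42% (IL10/2-Trikine against PBS) and 2.38% (between the treatments) of genes. Ifitm6 was not counted in NK cells.

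Ordering the classes by the PBS mean, Ifitm1 was highest in dendritic cells (1470 CPM) and neutrophils (1216), whose mice overlapped, and neutrophils stood apart from NK cells (433). Below these, T cells (235), macrophages (126), tumor epithelial cells (72.8), endothelial cells (58.6) and fibroblasts (18.5) overlapped with their neighbours. In mono-IL10 mice the order was dendritic cells (4583), apart from neutrophils (1716), which stood apart from macrophages (950). Macrophages overlapped the next class, T cells (486). Ifitm2 was led by neutrophils (2354), dendritic cells (986) and endothelial cells (648), and Ifitm3 by endothelial cells (2499), apart from dendritic cells (1045). Ifitm6 was led by dendritic cells (37.9) and neutrophils (34.5).

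The pathways around the family were read from gene lists. These lists were chosen with earlier results of these data known, so their counts are a description and not an independent check. In macrophages with mono-IL10, of 18 genes linked to IL-10 and STAT3, 11 rose and 1 fell, a median log2 difference of 0.25 against -0.0024 over all genes, where 26% of genes passed. Among them were the scavenger receptor Cd163 (3.30), the interleukin-4 receptor chain Il4ra (1.19), the signalling brake Socs3 (0.54), the interleukin-1 antagonist Il1rn (0.59) and Stat3 itself (0.51), while the repressor Etv3 fell by 0.46 on the log2 scale. With IL10/2-Trikine 5 rose and 2 fell, beside 16.7% of all genes passing. Between the treatments 5 were lower with IL10/2-Trikine, with Socs3 at -0.60 and Il1rn at -0.47 among them, and 0 were higher, beside 11.4% of all genes passing. Of 30 type I interferon genes, 0 rose and 3 fell with mono-IL10, namely Ifi27l2a (-1.35), the membrane tether Bst2 (-0.30) and the transcription factor Irf9 (-0.25), a median of -0.09. With IL10/2-Trikine 0 rose and 2 fell. Leaving out 1 mouse gave 2 to 7 genes with mono-IL10 and 1 to 5 with IL10/2-Trikine, in each case most without mono-IL10 mouse 2. Of 19 interferon-gamma genes, 1 rose with mono-IL10, Irf8 (0.33), and 2 fell, the MHC class II regulator Ciita (-0.74) and the GTPase Gbp3 (-0.40). Leaving out 1 mouse gave 3 to 7, most without mono-IL10 mouse 1. These list counts exclude the Ifitm genes.

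Among genes known to work with or on IFITM proteins, Cd9, a tetraspanin partner, fell by 0.66 on the log2 scale with mono-IL10 and by 0.55 with IL10/2-Trikine, 1 of 8 genes in each comparison, beside the 26% and 16.7% of all genes. The ubiquitin ligase Nedd4 was 1.14 higher with IL10/2-Trikine than with mono-IL10 in macrophages, also 1 of 8, beside 11.4%. Of the 4 interferon receptor chains, Ifnar2 rose by 0.28 with mono-IL10, and Ifnar1 and Ifnar2 were -0.23 and -0.41 between the treatments. In dendritic cells 1 of 18 type I interferon genes, Ifi27l2a (-0.83), fell with mono-IL10 and 1 of 18 IL-10 and STAT3 genes, Il4ra (0.64), rose, beside 2.7% of all genes passing. In tumor epithelial cells 6 of 30 type I interferon genes rose and 1 fell with IL10/2-Trikine, with Ifit1 at 1.94, Rsad2 at 1.96 and Trim30a at 0.78. With mono-IL10 1 rose, Isg20 (0.28). The shares of all genes that passed were 21.1% and 4.62%. Between the treatments 15 of the 30 were higher and 1 lower with IL10/2-Trikine, a median of 0.44 against 0.012 over all genes, where 31.8% passed. The 7 genes from PBS became 13 without IL10/2-Trikine mouse 2, 11 without PBS mouse 4 and 4 without IL10/2-Trikine mouse 3, and the 16 between the treatments became 10 without mono-IL10 mouse 3 and 9 in thinned sums. Of 18 IL-10 and STAT3 genes in tumor epithelial cells, 4 rose and 6 fell with IL10/2-Trikine, among them Il1rn (-0.51) and the heme oxygenase Hmox1 (-0.69), a median of -0.06, and 1 rose with mono-IL10, the kinase Pim1 (0.26). Between the treatments 3 were higher and 6 lower with IL10/2-Trikine. The 10 genes from PBS became 6 without IL10/2-Trikine mouse 5 or PBS mouse 1 and in thinned sums. In T cells, the interferon-gamma receptor chain Ifngr1 fell by 0.47 with IL10/2-Trikine, and of 7 type I interferon genes tested 1 fell, Ifi27l2a (-0.89), beside 8.97% of all genes. The other Ifitm genes, Ifitm5, Ifitm7 and Ifitm10, had at most 1 member in a fit and none past the test.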

How the data were processed

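Single-cell 5' RNA-seq and hashtag libraries of CD45+ tumor cells were aligned by the authors to GRCm39, and the deposited unit is raw UMI counts per gene and barcode. The submitters' processing notes name Seurat 5.1.0 and DESeq2 1.46.0, and the authors' methods name Cell Ranger. No count column was left without a sample, apart from 7858 annotated cells of another treatment in the deposited cell table, which were not used here.

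Here, barcodes with under 1000 genes or over 10% mitochondrial counts were removed, as in the study. Mice were called from the hashtag counts (HTODemux, quantile 0.99, Seurat 5.3.0, R 4.3.3), which also removed barcodes with more than 1 hashtag as doublets, and no further doublet caller was run. T and NK cells and their mice came from the deposited annotation. All other cells were clustered (2000 variable genes without the Ifitm genes, 40 principal components, 60 k-means clusters, scikit-learn 1.9.0) and named by at least 3 detected markers. The naming thresholds were changed after clusters were inspected, from a rival lineage at 0.25 of the best score to 0.2 and from a mean marker level of 1 to 0.5, and 31.6%, 27.2% and 27.7% of clustered cells (PBS, mono-IL10, IL10/2-Trikine) stayed unnamed.

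Counts were summed per mouse and class with at least 10 cells and fitted with edgeR 4.0.16 (TMM, filterByExpr, quasi-likelihood test, limma 3.58.1), all 3 treatments in 1 fit per class, with Benjamini-Hochberg adjustment over all genes and a threshold of 0.05. All tests are two-sided. DESeq2 1.42.0, other size factors, no filter, deeper cells, thinned sums, other clustering and hashtag calls, and leaving out each mouse were the alternatives. For T and NK cells, counting cycling T cells with more NK UMIs as NK cells was a further alternative. On simulated data with known changes for mono-IL10 minus PBS, 2-fold changes were recovered at 79% in NK cells, 87% in tumor epithelial cells, 87% in T cells and 93% in macrophages. Changes of 4-fold were recovered at 97% to 98%, and 0.541% (tumor epithelial) to 7.28% (macrophages) of the calls were false. The changed genes were drawn at random from all fitted genes, so these rates are not rates for the Ifitm genes. Shares used cells thinned to 2000 UMIs. Intervals of pooled cells are exact Poisson intervals at 95% and cover counting error only. Tables were built in Python 3.11.15 (pandas 2.3.3, numpy 2.4.6, scipy 1.17.1).

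The members and lists were chosen with earlier results of these data known. All 4 members were named in every class, any gene of the fixed lists could be named, and for Ifitm1 the 5 genes with the highest Pearson correlation over all mouse-by-class sums and the 5 over macrophage mice.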

Additional observations from a re-analysis of the deposited data

Results flagged for a closer look

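Among 88 groups of mice checked for 1 value far from the others by Dixon's criterion, 12 stood out. This count is not set against a chance rate, because a group in which only 1 mouse has a UMI is flagged in any case. In macrophages of PBS mice, mouse 2 was high for both Ifitm1 (209.9 CPM, the other mice 91.5 to 111.6) and Ifitm2 (787 CPM, the others 567 to 622), and mouse 3 was high for Ifitm6 (12.3 CPM, the others 5.71 to 7.47). In macrophages with mono-IL10, mouse 5 was low for Ifitm1 (729 CPM, the others 971 to 1055).

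In T cells, mouse 2 of IL10/2-Trikine was high for Ifitm1 (1013 CPM, the others 17.4 to 215), and PBS mouse 1 was high for Ifitm3 (284 CPM, the others 80.7 to 102). NK cells of mono-IL10 mouse 2 were low for Ifitm2 (186 CPM, the others 691 to 762).

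The other flags were for Ifitm6 and rest on few UMIs. They were T cells of IL10/2-Trikine mouse 5 (41.3 CPM) and of PBS mouse 1 (6.17 CPM), endothelial cells of IL10/2-Trikine mouse 4 (2.70 CPM) and of mono-IL10 mouse 3 (7.12 CPM), with 0 in every other mouse of each group, and neutrophils of mono-IL10 mouse 1 (32.7 CPM, the others 4.96 to 10.5). No cause was tested.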

How the results depend on the processing

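Over the 8 alternatives fitted for the class as a whole, Ifitm1 in macrophages stayed between 2.80 and 3.10 (mono-IL10 minus PBS) and between 2.00 and 2.28 (IL10/2-Trikine minus PBS). The log2 ratio of the thinned Ifitm1 shares to PBS was 1.61 (mono-IL10) and 1.35 (IL10/2-Trikine) in macrophages. It was 0.57 in dendritic cells with mono-IL10 and, with the sign turned, -0.054 in neutrophils with mono-IL10. Ifitm2 between the treatments in macrophages turned to 0.017 as a log2 ratio of thinned shares. Ifitm6 in dendritic cells with IL10/2-Trikine turned to -0.13 under the first naming rule, an alternative added after seeing the data. Ifitm1 in dendritic cells was 0.045 for IL10/2-Trikine minus PBS in cells with at least 2000 genes and 2.12 for mono-IL10 minus PBS under the first naming rule. T cell members past the threshold numbered 1 with DESeq2, 5 without a filter, 0 in thinned sums (6 differences tested), 0 in cells with at least 2000 genes (3 tested) and 1 without mixed cells. The thinned sums and the cells with at least 2000 genes did not test Ifitm3. Without a filter, Ifitm1 in T cells passed for mono-IL10 minus PBS (1.10, adjusted p = 1.03e-09) and between the treatments (-0.61, adjusted p = 0.00467), and with DESeq2 Ifitm3 missed for IL10/2-Trikine minus PBS (0.93, adjusted p = 0.0699). Causes of these changes were not tested. DESeq2's size factors moved the median of all genes by over 0.1 (log2) in dendritic cells (0.15 and 0.19), neutrophils (-0.12), T cells (0.20 and -0.12) and NK cells (0.17 and -0.17). In T cells the Ifitm levels rest on few UMIs per mouse, which limits them.

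Leaving out 1 mouse gave, for Ifitm1, 2.88 to 3.30 and 1.98 to 2.47 in macrophages (mono-IL10 and IL10/2-Trikine minus PBS), 1.57 to 1.82 and 0.67 to 0.97 in dendritic cells and 0.38 to 0.69 in neutrophils. Members past the threshold numbered 1 to 2 in T cells, 2 to 3 in tumor epithelial cells and 0 in NK cells.

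Genes past the threshold, in the order IL10/2-Trikine minus PBS, IL10/2-Trikine minus mono-IL10 and mono-IL10 minus PBS, numbered 97, 91 and 203 in dendritic cells, 150 and 226 for the first pair with DESeq2, 320, 407 and 445 without a filter, 36, 26 and 27 thinned, 40, 0 and 23 under the first naming rule, and 207 for the second in cells with 2000 genes. In macrophages they were 2006, 1364 and 3118, 918, 426 and 1113 thinned, and 985 for the first in cells with 2000 genes. In NK cells they were 104, 56 and 7, 38, 12 and 3 thinned, and 12 with DESeq2 and 46 without a filter for the last. In T cells they were 286, 391 and 55, 83, 117 and 14 thinned, and 135 without a filter and 23 in cells with 2000 genes for the last. In tumor epithelial cells they were 3118, 4705 and 685, 1999 for the first and 434 for the last thinned, and 1155 with DESeq2 and 1311 under the first naming rule for the last. In neutrophils 135 became 237 without a filter. Leaving out 1 mouse gave 50 to 107, 38 to 113 and 128 to 235 in dendritic cells, 1601 to 2045, 905 to 1426 and 2542 to 3212 in macrophages, 61 to 101, 9 to 72 and 3 to 13 in NK cells, 151 to 304, 277 to 417 and 20 to 70 in T cells, 2374 to 3154, 3871 to 4689 and 328 to 973 in tumor epithelial cells, and 85 to 175 in neutrophils.

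List genes past the threshold in macrophages with mono-IL10 minus PBS numbered 12 for IL-10 and STAT3 (7 thinned, 11 to 14 without 1 mouse), 3 for type I interferon (5 without a filter, 1 thinned, 2 to 7 without 1 mouse) and 3 for interferon-gamma (6 without a filter, 5 in cells with 2000 genes, 1 thinned, 3 to 7 without 1 mouse). With IL10/2-Trikine minus PBS they numbered 7 (5 to 9), 2 for type I (5 without a filter, 0 in cells with 2000 genes, 1 to 5) and 2 for interferon-gamma (4 without a filter, 0 in cells with 2000 genes, 0 thinned, 0 to 3). In tumor epithelial cells type I genes numbered 7 with IL10/2-Trikine minus PBS (4 under the first naming rule, 4 to 13) and 16 between the treatments (9 thinned, 10 to 21), and IL-10 and STAT3 genes 10 (6 thinned, 6 to 10) and 9 (8 to 11).

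No paired analysis was possible because the mouse numbers, which come from hashtags used again in each library, mark different animals and the labels tie no mice together across treatments.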

Other observations

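Mast cells or basophils, too few per mouse to be compared, were read as 1 sum of cells per library, with no replicate check. Ifitm1 was 198 CPM (exact Poisson interval 150 to 257, counting error only) in 52 PBS cells, 1556 CPM (1442 to 1676) in 50 mono-IL10 cells and 398 CPM (322 to 485) in 54 IL10/2-Trikine cells. Ifitm2 was 846, 1722 and 779 CPM and Ifitm3 216, 67.3 and 344 CPM in the same order. Ifitm6 was not counted in these cells.

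Endothelial cells and fibroblasts were not part of the tested classes. Ifitm3 had means of 2499, 2677 and 2713 CPM in endothelial cells of PBS, mono-IL10 and IL10/2-Trikine mice, and 92.9%, 95.3% and 98.4% of thinned cells held a UMI of it. Ifitm1 in fibroblasts was 18.5 ± 8.1, 42.5 ± 37.1 and 44.8 ± 15.1 CPM (SD, n = 5). At the share of the 8 macrophage genes found there, macrophage RNA would carry 4.60, 32.0 and 23.0 CPM.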
